A study of Mus musculus with 3 samples.

Results

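The Zscan4 cluster region of mouse chromosome 7 was taken as every 1 kb window of chr7:11000001-12400000 in the mm9 build, which gave 1400 windows of 2725738 in the whole series. Position alone chose the windows, and no measured value entered the choice. RNA of ovulated oocytes was measured in 3 libraries, 1 from each of 3 litters, and the design holds no second group. The females had been superovulated and were homozygous for the floxed Kdm1a allele (LSD1 FL/FL) on a mixed strain background. They were ZP3::Cre negative, so the transgene that would drive Cre in growing oocytes was absent. Oocytes were collected by embryonic day 0.5 and lysed, and their total RNA was copied by single primer isothermal amplification (SPIA), which makes many cDNA copies from little RNA. The labels give neither the number of oocytes per library nor the number of females pooled.

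Zscan4 proteins carry a SCAN domain, through which such proteins pair, and zinc fingers that bind DNA. In the mouse their genes form a tandem cluster of near-identical copies, known for a burst of transcription when the early embryo switches on its own genome, and for brief expression in a few embryonic stem cells at a time, where it has been tied to telomere maintenance. An ovulated oocyte is transcriptionally silent and carries the RNA stored during its growth.

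The GENCODE M21 annotation, built on GRCm38, lists 9 genes of this name, in the order Zscan4a, Zscan4b, Zscan4c, Zscan4-ps1, Zscan4d, Zscan4e, Zscan4f, Zscan4-ps2 and Zscan4-ps3. From the first to the last it lists 53 genes, of which the other 44 are 41 pseudogenes and 3 miRNA genes. The genes listed just before Zscan4a include Nlrp4b, a member of the NLR family, and the vomeronasal receptor gene Vmn1r71. Those coordinates belong to another build than the files, so no gene was placed on the mm9 windows by position. Names below rest on order, strand and exon or intron lengths, and each such use is stated.

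A pair of stretches of Zscan4 coding sequence show how far reads of 72 bases can separate the copies. The first lies in all 9 reference transcripts without a difference, so a read from it fits every gene of the family. It comes from bases 1625 to 1696 of the Zscan4c transcript (ENSMUST00000131379.3), in the last exon and in the coding part, and is read in transcript sense from GENCODE M21.
Zscan4, all 9 genes: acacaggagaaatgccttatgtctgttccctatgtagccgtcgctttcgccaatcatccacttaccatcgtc
The second, bases 1566 to 1637 of the same transcript, has 1 varying position, marked by the capital letter. It parts the 9 genes into 2 sets only, Zscan4b with Zscan4e and the other 7 together.
Zscan4c: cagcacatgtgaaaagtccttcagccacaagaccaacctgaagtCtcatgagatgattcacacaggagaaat
Zscan4b: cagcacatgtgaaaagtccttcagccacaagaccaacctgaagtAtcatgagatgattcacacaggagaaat
Of the 9278 distinct 72-base sequences in the 9 transcripts, 46 lay in all of them. The share of a gene's 72-base sequences found again in another Zscan4 gene ran from 35.8% for Zscan4-ps1 and 40.6% for Zscan4d to 86.4% for Zscan4e and 91.2% for Zscan4f. Outside the family, 87 of these sequences lay in 1 other gene, the pseudogene Gm45551.

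Out of 35183199, 31787887 and 32028802 alignments per library, 13104, 13026 and 14689 fell in the region. The region's level, in counts scaled to a library of 1e6 alignments (CPM), was 372, 410 and 459 in the order of the litters (414 ± 43.2, SD, n = 3). Exact 95% Poisson intervals were 366 to 379, 403 to 417 and 451 to 466 CPM and did not overlap. They cover counting error only and treat each alignment as an independent count. Many alignments repeat a start or a depth pattern, so the intervals may be too narrow even for that error. CPM are shares of a library, so they show neither the number of oocytes nor the RNA per oocyte. A share also moves when the rest of the library changes. The alignments of the region began at 5290, 5092 and 4162 distinct positions, so that 59.6%, 60.9% and 71.7% of them repeated a start already used. Litter 3 thus had the highest level on the fewest positions. With each start position counted once, in the region and in the total, the level was 1046, 1103 and 880 CPM (1010 ± 116, SD, n = 3), and litter 3 was the lowest.

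Per megabase the region held 295 ± 30.9 CPM (SD, n = 3), against 266, 273 and 394 (mean 311) in the rest of chromosome 7 and 367 in the rest of the genome. The stretch of equal length just before the region held 51.1 ± 21.7 CPM per megabase and the stretch just after it 431 ± 81.4 (SD, n = 3). The region's 266, 293 and 328 CPM per megabase thus overlapped with the values of its chromosome and lay below the genome's mean. The 367 is set by the CPM scale and the genome's length, because nearly all alignments lie in the rest of the genome. It therefore hardly varies between litters or ways of counting, and does not describe a typical window. By share of windows at 1 CPM in all litters the region lay above the genome, 3.57% against 1.22%. With each start counted once the comparison of CPM per megabase turned. The region then held 721 ± 82.7 CPM per megabase, above the 391 ± 11.6 of the rest of chromosome 7 and the 367 of the rest of the genome (SD, n = 3). By litter the region held 747, 788 and 629, and the stretch just after it 585, 614 and 605. That stretch thus also lay above its chromosome and the genome, and came near the region in litter 3. The stretch just before the region held 120, 134 and 168. A read placed at several near-identical copies would still count at each of them. No test was made, because 3 litters cannot give an exact two-sided sign-flip p below 0.25.

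Most windows of the region were empty, yet fewer than elsewhere. Without any signal were 83.5%, 84.0% and 85.7% of its windows, litter by litter (84.4% ± 1.16, SD, n = 3). The same share was 93.0% ± 1.15 in the stretch before it, 90.9% ± 0.805 in the stretch after it, 91.8% ± 0.702 in the rest of chromosome 7 and 92.3% ± 0.620 in the rest of the genome (SD, n = 3). The highest value of the region lay below the lowest value of each of these places. A read placed at several near-identical copies would give signal to several windows, and the tracks do not show how often that occurred. By runs of 6 start positions, described below, 40.0% of the region's alignments recurred at another place inside it. Fewer empty windows therefore need not mean more distinct signal. An empty window allows up to 0.0853, 0.0944 and 0.0937 CPM in litters 1, 2 and 3, the level of 3 alignments, and sequence missing from the mm9 assembly cannot be told from sequence without reads. In total 50 windows reached 1 CPM in all 3 litters, against 5 and 21 in the stretches before and after. As a share of windows this was 3.57%, against 1.30% in the rest of chromosome 7 and 1.22% in the rest of the genome.

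The signal was concentrated. The 2 highest windows held 26.9% ± 2.29 of the region's alignments, the 10 highest 49.9% ± 9.36 and the 50 highest 85.0% ± 4.36 (SD, n = 3). Bases covered at least once were joined across gaps of up to 500 bases into 203 stretches with a median length of 303 bases. Of these, 100 were seen in all 3 litters, 46 in 2 and 57 in 1. The 57 single-litter stretches held 0.256% of the signal. Covered bases made up 3.37%, 3.34% and 2.56% of the region in litters 1, 2 and 3. The longest uncovered gap ran for 72760 bases, over chr7:12290039-12362798.

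**Figure D1:**
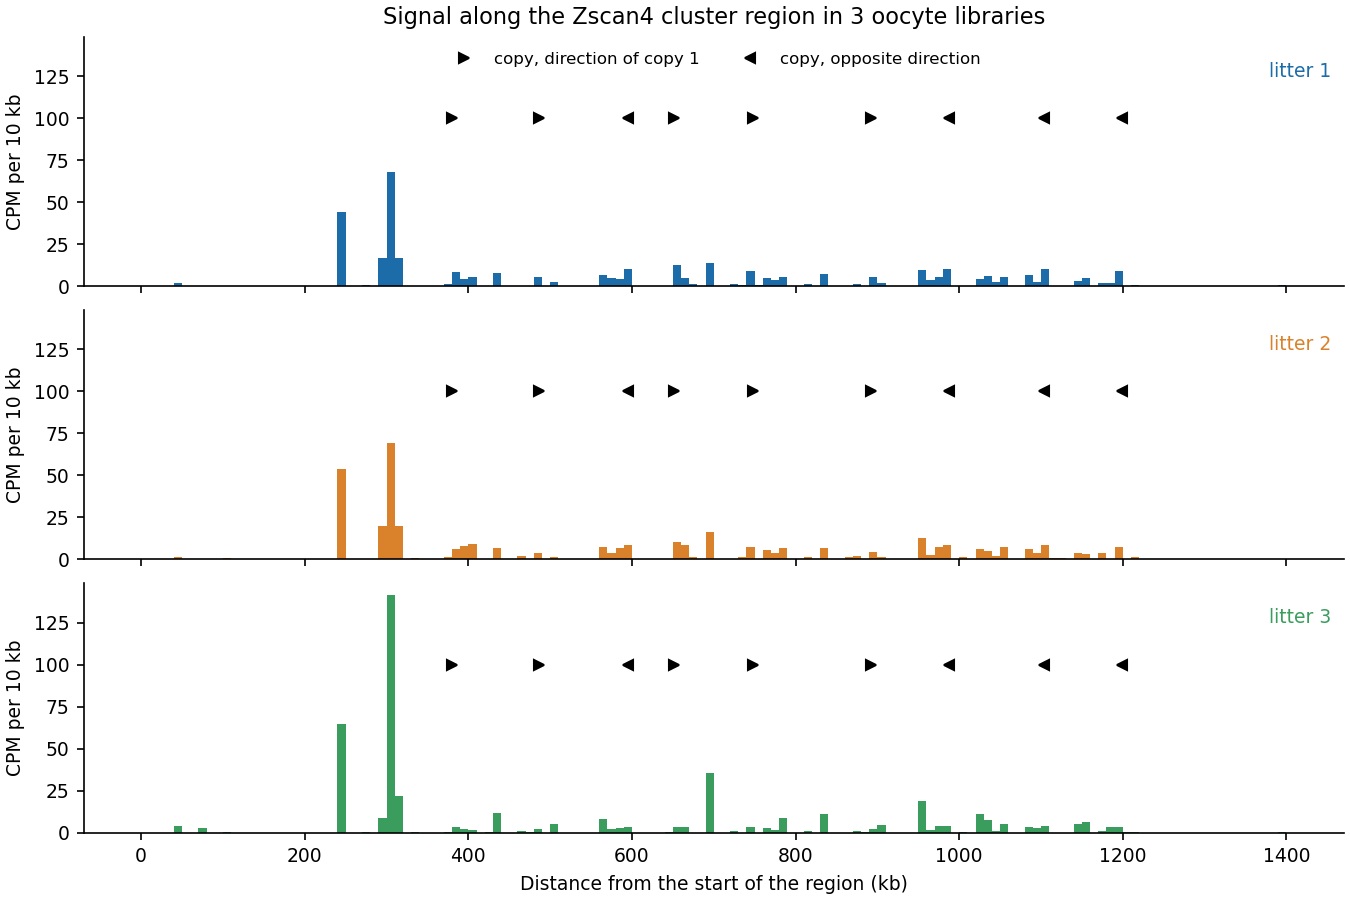
Signal along the region in each litter, as CPM per 10 kb (y axis) against distance from the region's first base in kb (x axis); triangles mark 9 copies of one depth pattern and their direction. The tallest bars of each litter lie between 200 and 400 kb, and the copies follow in a row of low bars.

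Cut into 100 kb pieces, chr7:11200001-11300000 held 16.9% of the region's signal and chr7:11300001-11400000 held 29.8%. Each of the 8 pieces from chr7:11400001 to 12200000 held between 3.86% and 9.10%. The piece at chr7:11100001-11200000 and the last 2 pieces held 0.0796%, 0.229% and 0.125%.

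The region's signal fell into 4 named parts that do not overlap. A group of stretches at chr7:11290001-11320000 held 101, 110 and 172 CPM (30.5% ± 6.12 of the region, SD, n = 3). A single stretch at chr7:11241644-11242823 held 44.3, 54.0 and 65.0 CPM (13.1% ± 1.13). The 9 copies of one pattern, described below as the pattern with the Zscan4 layout, held 81.2, 67.6 and 28.4 CPM when summed (14.8% ± 7.93). Other sets of stretches linked by shared patterns held 131, 158 and 180 CPM (37.7% ± 2.15). Everything else came to 3.94% ± 1.04. Litter 3 was the highest litter in each named part except the 9 copies, where it was the lowest.

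The stretch with the highest level, chr7:11299495-11304644, held 72.9, 75.8 and 147 CPM in litters 1, 2 and 3 (98.5 ± 41.7, SD, n = 3), 23.4% of the region's signal. It is 5150 bases long, the longest of all. Its window chr7:11300001-11301000 was the highest of the region with 52.0, 54.7 and 72.2 CPM (mean 59.6), and 0.536% of that window's alignments lay in runs of start positions found again elsewhere. Blocks of depth at chr7:11290001-11320000 were kept where they held at least 20 alignments over the 3 litters. They were compared with the exon lengths and spacings of 73278 reference transcripts of at least 4 exons. Nlrp4b (ENSMUST00000117413.8, 9 exons) matched most block edges, 9 of 20 within 10 bases, and the next was Muc5ac with 7 over 50 exons. In the reference order Nlrp4b stands before Zscan4a with 4 genes between them, and the stretch too lies before the 9 copies. The gene was chosen after these values were seen, and the match says nothing of its level beyond the stretch's own.

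Of the 10 blocks, 7 had a counterpart, taken by overlap, among the exons of Nlrp4b. The other 3 had none, and were 749 bases long with 34, 75 and 265 alignments, 461 bases with 12, 42 and 82, and 129 bases with 0, 23 and 0.

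Along that layout the block in the place of exon 3 was 313 bases long against an exon of 319, and held 413, 439 and 108 alignments. The block in the place of exon 4, 1824 bases against 1555, held 2070, 1997 and 2644. The block in the place of exon 5 was 1183 bases long, far longer than the exon of 159, and held 440, 286 and 1606. Exon 6 (165 bases) had a block of 173 bases with 8, 8 and 99 alignments, and exon 9 (619 bases) a block of 620 bases with 387, 398 and 567. Exons 7 and 8, both of 171 bases, had blocks of 179 bases with 25, 37 and 36 alignments and of 939 bases with 162, 175 and 100. So litter 3 held the fewest alignments in the blocks set beside exons 3 and 8 and the most in those beside exons 4, 5, 6 and 9. The blocks beside exons 5 and 8 reach far beyond the exons, so their counts are not counts of those exons. Of exons 1 and 2, which are 68 and 99 bases long, no block was seen.

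The second highest stretch, chr7:11241644-11242823, held 1560, 1717 and 2081 alignments (54.4 ± 10.3 CPM, SD, n = 3), with its peak in window chr7:11241001-11242000 at 52.4 ± 10.5 CPM. It shared no pattern with any other place inside the region, but 48.5% of its alignments lay in runs of 6 start positions found again at 25 places of 100 kb outside it. The most runs, 89, lay on chromosome X at chrX:71506420-71506899 and the next 79 at chr7:86934998-86935582. Its level is thus shared in an unknown way with those places.

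The next 3 stretches by level were shorter or lower. chr7:11698399-11698593 held 297, 396 and 895 alignments (16.3 ± 10.3 CPM), chr7:11952870-11953881 held 340, 398 and 614 (13.8 ± 4.88) and chr7:11314896-11315515, the block in the place of exon 9 above, 387, 398 and 567 (13.7 ± 3.51; SD, n = 3). Each was highest in litter 3. The first 2 of them belong to one linked set, given below.

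The remaining 6 of the 10 highest windows ranged from 6.47 to 23.3 CPM. In litter order, chr7:11303001-11304000 held 12.4, 8.84 and 48.7 CPM and chr7:11301001-11302000 held 2.86, 3.72 and 12.8, both inside the longest stretch. chr7:11295001-11296000 held 11.7, 13.8 and 3.37 CPM and was the only one of these windows lowest in litter 3. chr7:11953001-11954000 (8.37 ± 1.23), chr7:12029001-12030000 (3.95, 6.20 and 11.4 by litter) and chr7:11786001-11787000 (6.98 ± 1.78 CPM, SD, n = 3) were rich in repeated patterns, with 100%, 87.7% and 69.3% of alignments in runs of 6 found again inside the region.

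Depth patterns repeated within the region. A run was counted as recurring when its start positions, with their counts in each library and their spacing, occurred again in either direction, and the track does not say whether a read was placed more than once. By runs of 3 positions with at least 50 alignments, 16.0% ± 1.30 of the region's alignments recurred, against 25.9% ± 2.10 of all alignments in the genome (SD, n = 3). Only 38.9% of the region's alignments lay in runs deep enough to be tested this way, and 41.4% of those recurred. By runs of 6 positions without a minimum, 50.5% ± 4.94 of the region's alignments recurred, 40.0% ± 5.08 at another place inside the region, against 30.9% ± 1.64 in the genome (SD, n = 3). The region thus lay below the genome's share by the first definition and above it by the second, which was added after the data were seen. Runs of 3 at lower minimums also put the region above the genome, with 29.2% ± 1.38 against 28.5% ± 1.61 at 20 alignments, a gap within the litter spread, and 45.3% ± 0.821 against 35.3% ± 0.947 at 10 (SD, n = 3).

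By runs of 6, the most repeated patterns inside the region occurred at 9 places, and 42 distinct patterns did so. The count depends on the definition, since it was also 9 for runs of 10, but 4, 7 and 11 for runs of 3 at minimums of 50, 20 and 10. Their 9 places formed a row over 818 kb with 55.8 to 145 kb between neighbours. Copies 1, 2, 4, 5 and 6 had 1 direction and copies 3, 7, 8 and 9 the other. The 9 Zscan4 genes of the reference have the same number and, with one direction taken as the minus strand, the same order of strands, at 9 of 9. In each copy the distance between a pattern near one end and a pattern near the other exceeded intron 2 of the gene at the same rank by 1113 bases in 7 copies and by 1110 in copies 2 and 6, the ranks of Zscan4b and Zscan4e. Intron 2 itself ranged from 1817 to 1846 bases. The copies are referred to by number, and no level is given for a gene.

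Summed over the 9 copies there were 2857, 2149 and 911 alignments in litters 1, 2 and 3, or 81.2, 67.6 and 28.4 CPM (59.1 ± 27.4, SD, n = 3). With each start counted once, in the copies and in the total, the copies held 328, 317 and 100.4 CPM (248 ± 128, SD, n = 3). Litter 3 was again the lowest. The total then holds fewer counts, so these values are on another scale and do not show more signal. A read that fits all copies may count up to 9 times and some runs also lie outside the region, so neither a single copy nor the sum bounds the level of the family. The highest copy, copy 4, held 438, 334 and 117 alignments (8.87 ± 4.62 CPM), and copies 2 and 6, the lowest, held 183, 129 and 67 (3.78 ± 1.57) and 182, 133 and 67 (3.82 ± 1.57; SD, n = 3). The other 6 copies lay between 6.67 and 7.52 CPM. In all 9 copies litter 1 was highest and litter 3 lowest, by 2.47 to 3.41 times, although the copies are not independent of each other.

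**Figure D2:**
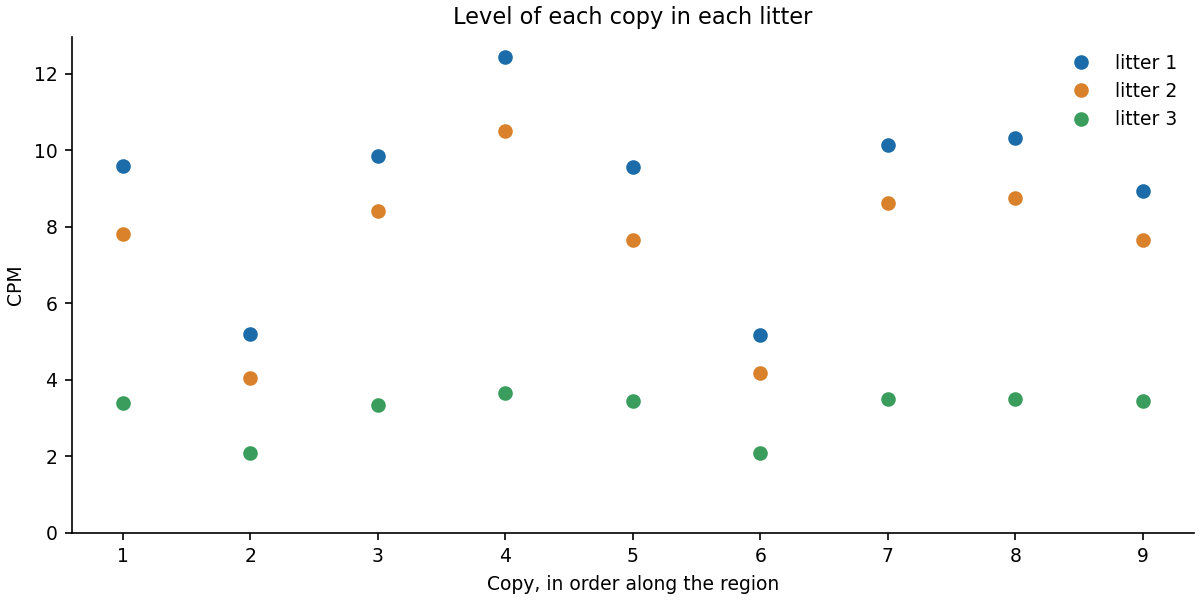
Level in CPM (y axis) of each of the 9 copies in their order along the region (x axis), 1 point per litter. Litter 1 is the highest and litter 3 the lowest point at every copy, and copies 2 and 6 are the lowest in each litter.

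Depth within a copy formed 4 blocks, set here beside the 4 Zscan4 exons. Named from the end of the transcript, block 1 spanned 988 to 1479 bases, against 1031 to 1540 for exon 4, which encodes the zinc fingers. By rank, block 1 was shorter than exon 4 in 7 copies, by 43 to 188 bases, and longer in the other two. Copy 4 spanned 1479 bases against 1287 for Zscan4-ps1, and copy 7 spanned 1350 against 1115 for Zscan4f. Block 2 spanned 118 to 164 bases (exon 3, 160 bases), block 3 spanned 450 to 457 (exon 2, 471 or 472) and block 4 spanned 89 to 115 (exon 1, 82 to 107). Between blocks 2 and 3, in the place of intron 2, copies held 0 or 1 alignment in a litter. The median copy held 311, 223 and 108 alignments in block 1 and 20, 13 and 2 in block 3. In block 2 it held 6, 13 and 0, and in block 4 it held 2, 2 and 0. Alignments were thus most numerous in block 1, in the place of the last exon, in every litter. Litter 3 held no alignment in blocks 2 and 4 of any copy. The blocks differ in length. Per kb of block, copy 1 held 4.64 CPM in block 1 and 0.998, 0.720 and 0.347 in blocks 2, 3 and 4 (means over litters).

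Within block 1 the depth was further drawn together. Of all alignments in the copies, block 1 held 91.1%, 88.7% and 98.2% in litters 1, 2 and 3. A core of 480 bases of it held 67.7%, 55.6% and 93.96%. By the edges of the blocks and the exon lengths of Zscan4c, with an uncertainty of 8 bases, this core falls on bases 1271 to 1759 of that transcript. The transcript is 2276 bases long, so the core stops short of its end. The longest run of 72-base sequences common to all 9 genes, 28 in number, covers bases 1611 to 1709, and the first sequence printed above comes from it.

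**Figure D3:**
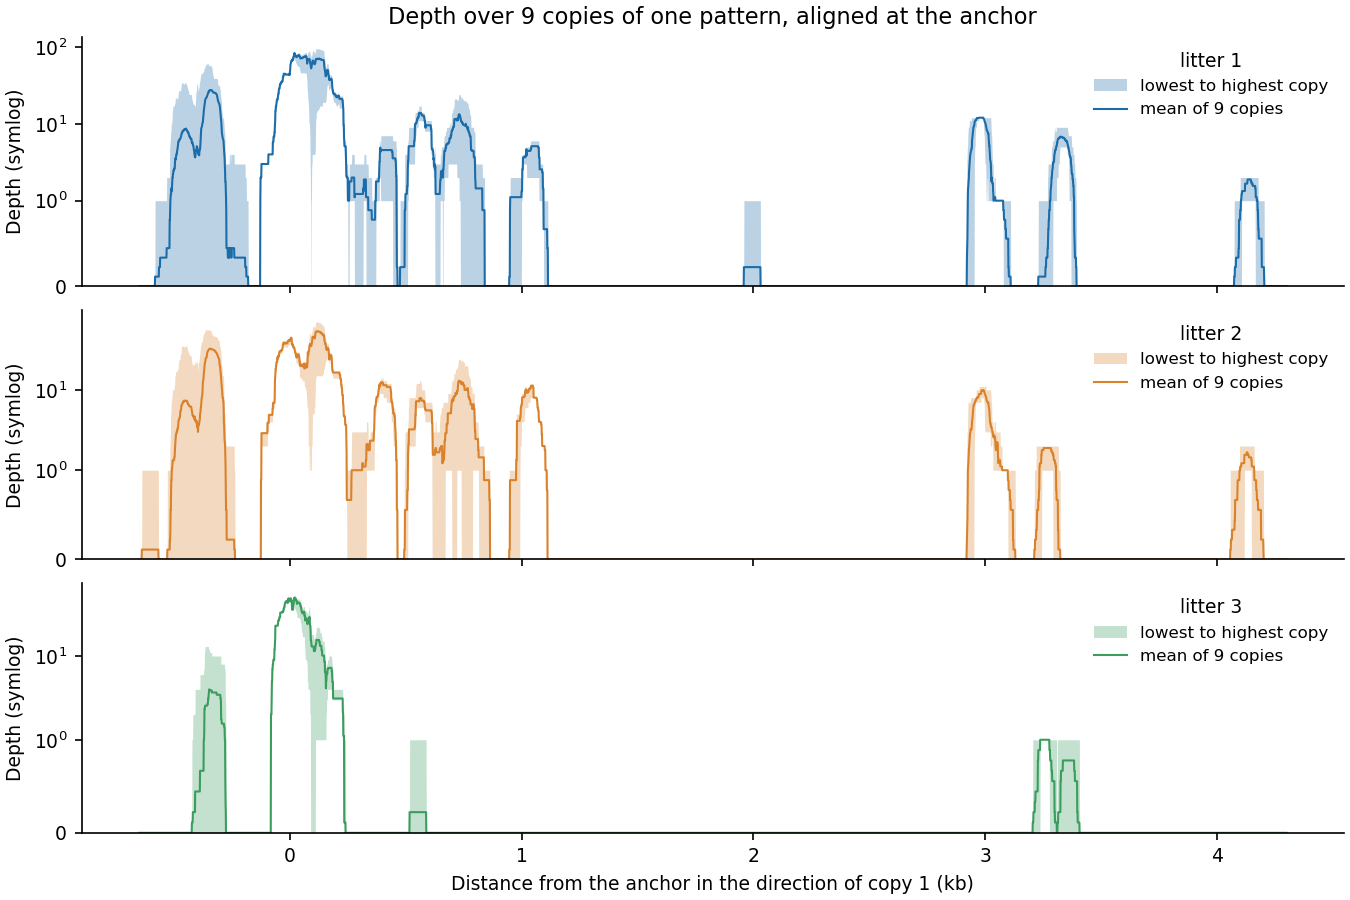
Depth (y axis, linear below 1 and logarithmic above) in each litter over 9 copies aligned at a shared pattern, against distance in kb along the direction of copy 1 (x axis); lines show the mean and shading the lowest to highest copy. Blocks 1 to 4 run from left to right, and litter 3 has nearly all its depth near 0 kb.

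Most of the copies' alignments lay in patterns seen at another copy, 87.4%, 86.6% and 96.0% in litters 1, 2 and 3. Copies 2 and 6 had 0% in runs found at no other copy, and copy 4 had 33.3%, the highest of the 9. Patterns found outside the region held 7.21%, 6.10% and 4.28%. Over the 36 pairs of copies, the share of 72-base sequences that the 2 reference transcripts of the same ranks have in common was set beside the share of alignments that the copies have in common. Copies 2 and 6 were first by both measures, at 81.3% of sequences and 97.8% of alignments, and copies 7 and 8 second at 71.96% and 93.5%. The pairs with the fewest shared alignments were copies 2 and 4 at 40.3% (14.2% of sequences) and copies 2 and 5 at 40.3% (11.6% of sequences). Pearson's r over the pairs was 0.84 and Spearman's rho 0.79, as a description, since pairs share copies and libraries.

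**Figure D4:**
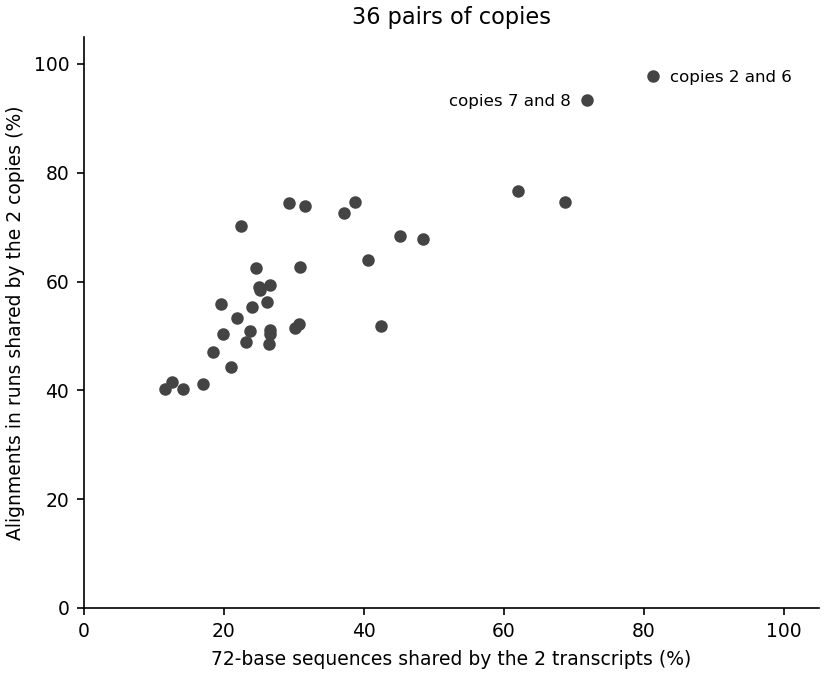
Share of alignments in runs common to 2 copies (y axis, percent) against the share of 72-base sequences common to the 2 transcripts of the same ranks (x axis, percent), 1 point for each of 36 pairs. Copies 2 and 6 stand highest on both axes, followed by copies 7 and 8.

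Other patterns linked stretches too. Counting stretches that shared at least 1 run of 6 positions, 90 of the 203 stretches fell into 12 linked sets that held 52.4% of the region's signal. Most of the 9 copies' block 1 fell into set F1 of 16 stretches, and block 3 into set F4 of 10. In F1, 9 stretches were highest in litter 1 and lowest in litter 3. The other 7 were faint, the lowest at 0.114 CPM, and lay outside the copies. They were highest in litter 3 and lowest in litter 2. Sets F2, F3, F5, F6 and F8 lay outside the copies.

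The set with the highest summed level was F5, with 9 stretches and 48.9, 60.1 and 94.7 CPM in litters 1, 2 and 3 (67.9 ± 23.9, SD, n = 3). Its stretches ran from 3.58 to 16.3 CPM each, and 8 of the 9 were highest in litter 3 and lowest in litter 1. None lay within 30 kb of a copy. F8, with 5 stretches, gave 19.1, 14.8 and 30.97 CPM and was highest in litter 3 in all 5.

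Sets F2 and F3 lay beside the copies. One F3 stretch stood beside each of the 9 copies at 8.91 to 16.3 kb along the copy's own direction, past the exon 1 end, with 1 further stretch elsewhere. F2 had 11 stretches at 13.6 to 20.7 kb beside all 9 copies and 2 elsewhere. F6 had 6 at 20.97 to 26.4 kb beside 6 copies and 1 elsewhere. These neighbouring sets did not order the litters alike. F3 gave 12.0, 1.23 and 21.9 CPM in litters 1, 2 and 3, and 8 of its 10 stretches were highest in litter 3 and 9 lowest in litter 2. F2 gave 28.3, 54.9 and 17.8 CPM and was highest in litter 2 in 13 of 13 stretches. F6 gave 19.4, 15.4 and 6.93 CPM and was lowest in litter 3 in 7 of 7. Stretches of a set share alignments and are not separate measurements.

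**Figure D5:**
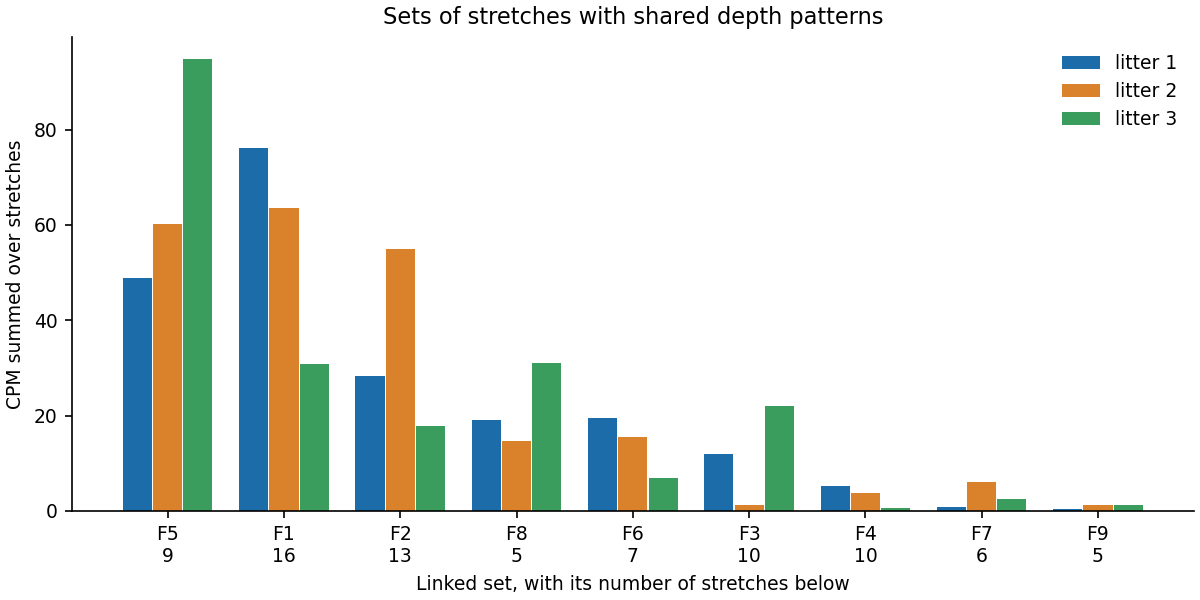
CPM summed over the stretches of each linked set of at least 5 stretches (y axis), with 1 bar per litter and the number of stretches under each set's name (x axis). F5 and F8 are highest in litter 3, F1 and F6 in litter 1 and F2 in litter 2, and F3 is almost absent in litter 2.

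Patterns of the region also lay outside it, in 1964 runs of 6 positions at 756 places of 100 kb on 24 chromosomes or unplaced sequences. The place with the most, 169 runs, was chr7:6900001-7000000. The share of the region's alignments held in them was 14.9%, 15.1% and 16.3% in litters 1, 2 and 3.

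The litters were compared window by window over the whole genome, with a chi-square test of the 3 counts against library totals and Benjamini-Hochberg adjustment. This sets differences against counting error alone, so repeated amplification products can pass it. At a mean of at least 10 CPM, an adjusted p under 0.05 and over 4-fold between the highest and lowest litter (0.5 CPM added), 16.0% of 10913 windows were called, and in the region 1 of 4. It was chr7:11303001-11304000, with 431, 279 and 1546 alignments, a ratio of 5.26 and an adjusted p of 1.24e-294. This window lies inside the block of 1183 bases set beside exon 5 of the Nlrp4b layout. That exon is 159 bases long, so most of the window lies outside it. The ratio was 3.82 without litter 2, just under the threshold of 4, and 1.37 without litter 3. At a mean of at least 1 CPM, 23.4% of 52367 windows were called and 17 of 73 in the region, a share near the background.

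Of the 12278 windows called over the genome, litter 3 was highest in 4945 and lowest in 5841. Of the region's 17 windows litter 3 was highest in 9 and lowest in 8. Of them 4 lay in the longest stretch and were all highest in litter 3, chr7:11301001-11302000 with 51, 91 and 339 alignments, chr7:11302001-11303000 with 25, 66 and 147, chr7:11303001-11304000 above and chr7:11304001-11305000 with 8, 8 and 99. Another 5 held 0 alignments in litter 2, and all belonged to set F3. These were chr7:11502001-11503000 with 63, 0 and 130 alignments, chr7:11585001-11586000 with 39, 0 and 73, chr7:11901001-11902000 with 38, 0 and 109, chr7:11977001-11978000 with 25, 0 and 80, and chr7:12183001-12184000 with 51, 0 and 117. A further 3 lay in the 9 copies and were lowest in litter 3. They were chr7:11594001-11595000 with 77, 75 and 3 alignments, chr7:11651001-11652000 with 132, 112 and 8, and chr7:11986001-11987000 with 48, 57 and 0. F2 held 3 more, namely chr7:11580001-11581000 with 34, 78 and 5 alignments, chr7:11973001-11974000 with 79, 109 and 9, and chr7:12090001-12091000 with 54, 97 and 5. The last 2 were chr7:11400001-11401000 with 162, 254 and 40 and chr7:11774001-11775000, in F6, with 117, 90 and 12. All 5 of these were lowest in litter 3.

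Over the 295 windows of the region with signal in any litter, log2(CPM + 0.5) of litters 1 and 2 correlated with r 0.91 (Spearman 0.71), of litters 1 and 3 with 0.85 (0.70) and of litters 2 and 3 with 0.78 (0.55). The same pairs gave r 0.91, 0.86 and 0.85 over 318382 windows of the genome. Windows within a library share depth and repeated reads, so these are descriptions.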

How the data were processed

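The authors deposited 1 coverage track per library, a signal giving the number of alignments over each base, unscaled. The tracks come from sorted alignments, 1 sequencing lane per library, per the file headers. Reads were aligned with Bowtie to mm9, per the submitters' processing notes, while its version, filters and the placements allowed per read were not given in the sources used. Isolated blocks were multiples of 72 bases in 100% of cases, so every alignment was taken as 72 bases, and starts were recovered from steps in the deposited depth. An alignment across a window edge was split by bases for levels and counted by its leftmost base in tests. The computations were tested on simulated data. Python 3.11.15, numpy 2.4.6 and scipy 1.17.1 were used.

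Windows, stretches and genes were named by rule (the 10 highest windows, called windows, 5 highest stretches, and the Zscan4 genes with their neighbours). Members and lists were chosen with earlier results of these data known. The bounds of the copies, the runs of 6 positions, the linked sets and the search for Nlrp4b were chosen after the values were seen. Sequences are from GENCODE M21. With 1 group, no conditions were compared. Alternatives covered windows, thresholds, scaling, runs and each litter left out.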

Additional observations from a re-analysis of the deposited data

How the results depend on the processing

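Of 49 alternatives over 8 results, 24 stayed within 1 SD over litters, or 1.5 times for counts, and 25 moved further. No paired analysis was possible because the design has 1 group. Share of windows without signal: 89.7% with 500-base windows, 60.8% with 5 kb windows and 89.0% with at least 3 alignments required. Region level: 1010 CPM with each start counted once and 468 CPM without recurring positions. Windows at 1 CPM in all litters (50): 8 at 5 CPM and 79 with each start counted once. Stretches (203): 445 with no gaps merged, 118 with 2 kb gaps merged and 99 where every litter had depth. Recurring share (16.0%): 29.2% at a minimum of 20, 45.3% at 10, 50.5% with runs of 6 and 43.3% with runs of 10, the last 2 added after seeing the data. Windows differing between litters (1): 2 at 2-fold, 17 at a mean of 1 CPM. Litter correlation (mean r 0.85): 0.64 over windows of at least 1 CPM and 0.76 with each start counted once. Summed level of the 9 copies (59.1 CPM): 248 CPM with each start counted once, an alternative added after seeing the data. Levels with each start counted once are scaled to a total counted that way too, so they are on another scale. Leaving out a litter gave 83.8 to 84.9% of windows without signal, 391 to 434 CPM, 53 to 65 windows, 184 to 201 stretches, a recurring share of 12.8 to 14.5%, 0 to 1 differing windows, r of 0.78 to 0.91 and 48.0 to 74.4 CPM for the copies. The 1 differing window was not called without litter 2 (ratio 3.82) or without litter 3 (1.37). Depth limits what an empty window shows, and levels of repeated sequence have no firm bound.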
